A study of Mus musculus with 3 samples.

Results

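The nuclei described here are smooth muscle nuclei of the newborn mouse aortic root in which the summed UMIs of Ptprz1, Mylk4 and Col19a1 exceeded those of 2 other smooth muscle gene sets. They numbered 998 of the 2612 smooth muscle nuclei, and of 21140 deposited nuclei in all. The material was aortic valve structures of mice at postnatal day 1. The mice carried the allele Scx<tm1.1(EGFP)Skom, an EGFP allele of the tendon transcription factor gene Scx, on the background B6.Cg (stock RBRC11098). All samples belonged to 1 group without treatment, in 3 pools of 22 to 24 aortic roots each. The labels do not say whether 1 or both copies of Scx carried it. Nuclear RNA was counted as UMIs, which are tagged single RNA molecules, in the gene expression part of a 10x Multiome assay.

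Members were chosen by measured values, the UMI counts of 23 genes in each nucleus. A nucleus needed at least 1000 UMIs and at most 5% mitochondrial UMIs. At least 3 of the smooth muscle genes Myh11, Itga8, Lmod1, Synpo2 and Mylk had to be detected, with a sum of at least 0.2% of its UMIs. The cardiomyocyte genes Ryr2, Ttn, Myh6 and Tnnt2 had to sum to under 0.5%, and the endothelial genes Pecam1, Cdh5 and Ptprb to at most 1 UMI. Within these nuclei the sum of Ptprz1, Mylk4 and Col19a1 had to reach 2 UMIs and exceed both the sum of Clca3a2, Pi15, Syt1, Col24a1 and Cdh18 and the sum of Rgs5, Sost and Igfbp2. The remaining 1614 smooth muscle nuclei comprised 1169 in which the Clca3a2 Pi15 sum led, 145 in which the Rgs5 Sost sum led, and 300 in which no sum of at least 2 UMIs led alone. The 3 marker sets came from an earlier clustering of these same nuclei. The p-values below therefore measure how repeatably other genes followed the marker counts across pools, and they are no evidence that the grouping itself exists.

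Vascular smooth muscle cells form the wall of the aortic root around the valve, where they lay down elastin and collagen and contract when myosin light chains are phosphorylated. Ptprz1 encodes a receptor-type tyrosine phosphatase that carries chondroitin sulfate and is best known from glia and neural progenitors, where it binds pleiotrophin, midkine, contactins and tenascins. Mylk4 encodes a member of the myosin light chain kinase family, Col19a1 a collagen associated with basement membrane zones, and Itga8 an integrin subunit that pairs with beta 1 integrin and binds nephronectin and fibronectin. Smooth muscle of the root and ascending aorta descends from second heart field and neural crest, so lists for both origins were examined beside contractile, matrix and signalling lists.

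Ptprz1 Mylk4 nuclei numbered 668, 132 and 198 in pools 1, 2 and 3. They made up 41.0% of smooth muscle nuclei in pool 1 (95% Wilson interval 38.7% to 43.4%), 35.5% in pool 2 (30.8% to 40.5%) and 32.4% in pool 3 (28.8% to 36.2%), with a mean of 36.3% ± 4.40 (SD, n = 3). The intervals cover counting error only. Their median depth was 4119, 3594.5 and 2659.5 UMIs per nucleus, against 3943, 3840 and 2610.5 in the other smooth muscle nuclei. Pool 1 held 3282692 of the 4504025 member UMIs, so its member sums had the smallest counting error. Pools shared 44 to 99 cell barcodes by pair among all deposited nuclei, and 1 of these belonged to members, in pools 1 and 2.

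The genes that chose the nuclei are described first, without a test. Ptprz1 stood at 3162, 2945 and 2925 CPM (counts per 1000000 UMIs, summed per pool and class) in members and at 751, 631 and 549 CPM in the other smooth muscle nuclei. Mylk4 stood at 408, 411 and 394 CPM in members and 105, 129 and 99.6 CPM in the others, and Col19a1 at 148, 187 and 106 CPM against 40.2, 47.2 and 27.9 CPM. All 3 were above every pool of the other nuclei, which the rule favours, since it chose nuclei in which their sum led. Itga8, which the rule reads only for the smooth muscle gate, was at 3749, 3763 and 3614 CPM in members and 2115, 1988 and 1967 CPM in the others. The marker sets of the other classes were not absent from members: Pi15 was at 67.6, 97.4 and 110.4 CPM in members and 603, 753 and 697 CPM in the others, and Sost at 179, 254 and 150.5 CPM against 153, 273 and 114 CPM.

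Most members rested on Ptprz1. It was detected in 98.4%, 97.7% and 96.5% of members, Mylk4 in 56.0%, 53.0% and 52.5%, and Col19a1 in 28.3%, 22.0% and 18.7%. Only 149 of the 998 members had all 3 transcripts, 484 had 2 and 365 had 1. After each nucleus was thinned to 1000 UMIs, Ptprz1 was detected in 87.7% ± 0.543 (SD, n = 3 pools) of members, in 31.8% ± 3.92 of the other smooth muscle nuclei and in 0.904% ± 0.486 of nuclei gated as cardiomyocytes, in which at least 2% of UMIs came from the 4 cardiomyocyte genes. Without thinning the shares were 97.5%, 53.7% and 3.41%. The cardiomyocyte-gated nuclei also had fewer than 3 of the smooth muscle gate genes detected, so they were chosen for few smooth muscle transcripts. In CPM, Ptprz1 was 12.2 ± 5.4 in the cardiomyocyte-gated nuclei (SD, n = 3) and 643 ± 102 in the other smooth muscle nuclei. Whether the level in cardiomyocyte-gated nuclei came from free RNA was not tested.

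The borders of the class were soft. The median sum of the 3 marker genes was 14.5, 12 and 10 UMIs per member, and 17 members held exactly the minimum of 2 UMIs. In 95 members the Ptprz1 Mylk4 sum led the next sum by 1 UMI. Just outside, 48 unassigned nuclei had 1 such UMI, 96 unassigned nuclei had at least 2 without leading (in 88 of them the sum equalled another sum), and 588 nuclei of the Clca3a2 Pi15 class had at least 2. Among 2221 smooth muscle nuclei with at least 5 UMIs over the 11 class genes, Ptprz1, Mylk4 and Col19a1 made up 75% or more of those UMIs in 430 nuclei, between 25% and 75% in 921, and 25% or less in 870. In every pool the lowest bin of this share, under 5%, held the most nuclei (285, 60 and 114), and the rest were spread over the whole range.

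**Figure D1:**
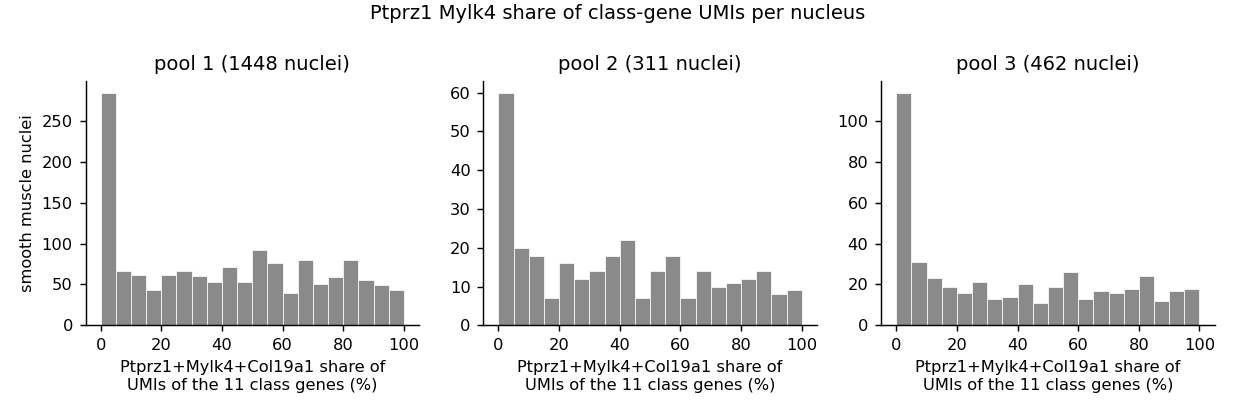
Number of smooth muscle nuclei (y axis) by the share of their class-gene UMIs that came from Ptprz1, Mylk4 and Col19a1 (x axis, percent, bins of 5), for nuclei with at least 5 such UMIs in each of the 3 pools. Nuclei spread over the whole range, with 921 of 2221 between 25% and 75%.

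Contractile markers outside the rule are given beside the smooth muscle label. Members were chosen for smooth muscle transcripts and the cardiomyocyte-gated nuclei for few of them, so this contrast was partly set in advance. Acta2, smooth muscle actin, was at 1008, 1350.3 and 838 CPM in members against 187.5, 170.5 and 115.7 CPM in cardiomyocyte-gated nuclei. Tagln, which encodes the actin-binding protein transgelin, was at 416, 565 and 308 CPM against 50.4, 41.8 and 23.6 CPM. Myocd, a coactivator of smooth muscle and heart genes, was at 828, 647 and 672 CPM in members and higher in the cardiomyocyte-gated nuclei, at 2947, 2673 and 2991 CPM, so it does not separate the tissues. Summed markers of other cell types that could sit beside or within the gate were compared between members and other smooth muscle nuclei. Fibroblast markers ranged from 248 to 506 CPM in members and from 506 to 533 CPM in the others, and 3 of the 6 tested (Dcn, Lum, Abca8a) passed as lower. Valve interstitial markers ranged from 149 to 556 CPM and from 430.1 to 848 CPM, with 2 of 5 lower (Ctnna2, Abi3bp). Endothelial markers ranged from 245 to 294 CPM and from 168 to 215 CPM, with Flt1 and Erg of 5 higher. Cardiomyocyte markers ranged from 358 to 749 CPM and from 355 to 730 CPM, and edgeR called 0 of 10, with 0 at an unadjusted p under 0.05 and 0 by DESeq2. Macrophage, Schwann cell, neuronal, adipocyte and mesothelial marker sums reached at most 79.2 CPM in either, melanocyte markers at most 114.5 CPM, and Foxd3 of the Schwann cell list, Th and Dbh of the neuronal list and Vtn of the pericyte list had no UMI in members. Pericyte markers ranged from 685 to 855 CPM and from 657 to 732 CPM, with 2 of 3 tested higher (Abcc9, Cspg4). Of these marker calls, Lum, Abi3bp and Erg passed without pool 1, and Dcn, Abca8a, Ctnna2, Flt1, Abcc9 and Cspg4 did not (adjusted p from 0.19 to 0.74). Cspg4 lost its call in 8 alternatives, without pool 3 among them.

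Against the other smooth muscle nuclei, 548 of 10578 genes were higher in Ptprz1 Mylk4 nuclei (5.18%) and 584 were lower (5.52%), in edgeR's quasi-likelihood test on summed counts with pool as a block and a Benjamini-Hochberg adjusted p under 0.05. Outside the rule the counts were 541 and 577 of 10556, with a median log2 fold change of -0.01. Pool 1 held most of the member UMIs. Without it 92 genes were higher and 75 lower. Of the 1118 calls outside the rule 155 remained, although all 1083 of them that could be fitted kept their direction. Why calls were lost was not tested. In the pool left out of a fit, genes called in the other 2 pools moved the same way in 156 of 157 cases for pool 1, 1054 of 1175 for pool 2 and 898 of 974 for pool 3, where 64.8%, 61.2% and 60.5% of all tested genes did. Ranges over the pools did not overlap between members and others for 1919 of 10578 genes (18.1%). Haemoglobin transcripts were lower in members: summed over Hbb-bs, Hbb-bt, Hba-a1 and Hba-a2, members had 348, 340.0 and 211 CPM and the others 590.4, 406 and 406 CPM, and with nuclei holding any haemoglobin UMI left out, 312 genes were higher and 275 lower. The haemoglobin difference was not stable: among nuclei with fewer than 2 cell cycle UMIs, Hba-a1 was higher in members by 0.54 ± 0.17 on the log2 scale (adjusted p = 0.032, edgeR). Median mitochondrial shares were also lower in members, at 0.374%, 0.526% and 0.346% against 0.489%, 0.857% and 0.371%, and the part of this difference in the gene counts was not tested.

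**Figure D2:**
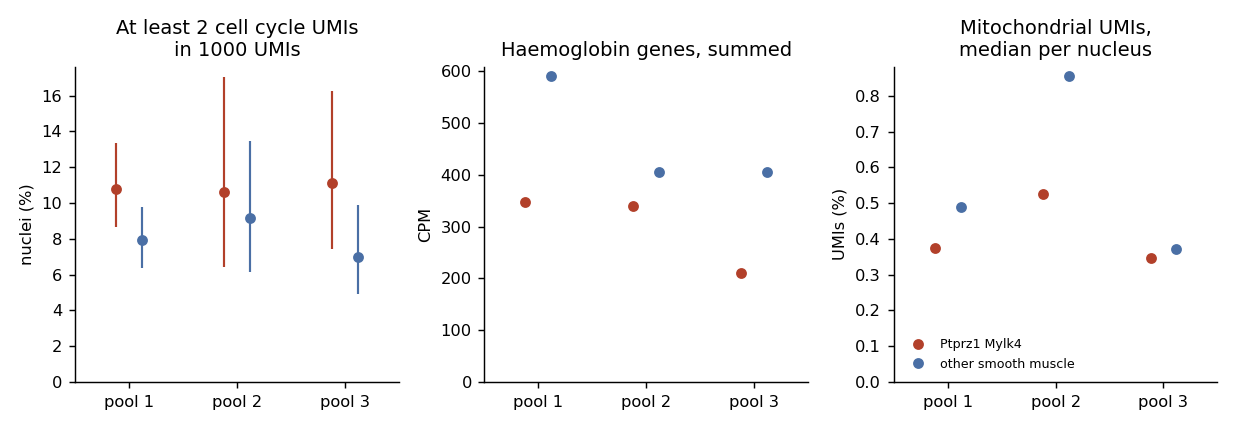
Values per pool (x axis) for Ptprz1 Mylk4 nuclei and the other smooth muscle nuclei: percent of nuclei with at least 2 cell cycle UMIs after thinning, with 95% Wilson intervals (left), summed haemoglobin CPM (middle) and the median percent of mitochondrial UMIs (right). Members lay below the others in all 3 pools for the haemoglobin and mitochondrial values, and their intervals overlapped those of the others for the cell cycle share.

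The genes that rose most in members included signalling genes. Gna14, a G protein alpha subunit of the Gq class, was at 183, 132 and 169 CPM in members and at 55.7, 50.8 and 22.2 CPM in the other smooth muscle nuclei (log2 fold change 1.91 ± 0.16 SE, adjusted p = 1.2e-08, edgeR). Wnt16, a secreted Wnt ligand, was at 165, 164 and 155 CPM against 65.7, 77.1 and 49.4 CPM (1.38 ± 0.11, adjusted p = 1.5e-08). Every member pool lay above every pool of the others for both genes. Dach1, a transcriptional regulator, was at 585, 684 and 537 CPM against 279.7, 226 and 207 CPM (1.32 ± 0.09, adjusted p = 7.2e-10). Kank4, of a family of adaptors between adhesions and the cytoskeleton, was at 157, 157 and 143 CPM against 61.7, 86.2 and 66.6 CPM (1.21 ± 0.12, adjusted p = 1.2e-07). Tnni3k, a kinase known from the heart, was at 83.5, 91.7 and 100.3 CPM against 28.3, 37.2 and 43.0 CPM (1.45 ± 0.14, adjusted p = 1.9e-07). Its level in cardiomyocyte-gated nuclei was 1757 ± 58.2 CPM (SD, n = 3). Of the cardiomyocyte genes that the rule reads, Ryr2 was at 1.46 times and Ttn at 1.25 times its mean level in the others, and Myh6 at 0.874 and Tnnt2 at 0.856 times. Their part in the Tnni3k difference was not tested. The remaining genes of the 15 largest rises were the predicted genes Gm32647, Gm33897, Gm40011 and 4930417O22Rik, the urocortin receptor Crhr2, the single-strand DNA binding protein Radx, the glutamate transporter Slc1a6, Wdr95, the nicotinamide methyltransferase Nnmt and the receptor of RANK ligand, Tnfrsf11a, with log2 fold changes of 1.22 to 1.93. Without pool 1, 9 of the 15 passed (adjusted p from 0.00134 to 0.296 over the 15), and all 15 kept their direction. Crhr2 was among those that did not pass (adjusted p = 0.30). DESeq2 called 7 of the 15 rises and gave the others no adjusted p.

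Among the 15 largest falls, Corin, a protease that activates natriuretic peptides, was at 117, 72.6 and 96.0 CPM in members and 405, 384 and 583 CPM in the others (log2 fold change -2.07 ± 0.12, adjusted p = 3.3e-11, edgeR). Gria1, an AMPA glutamate receptor subunit, was at 69.2, 70.7 and 87.4 CPM against 266, 250.5 and 323 CPM (-1.88 ± 0.10, adjusted p = 1.3e-11). Gabrb2, a GABA-A receptor subunit, was at 14.0, 9.55 and 14.3 CPM against 75.2, 79.9 and 73.8 CPM (-2.45 ± 0.18, adjusted p = 3.1e-09). For these 3 genes the lowest pool of the others exceeded the highest member pool more than 2-fold. Chrm2 and Chrm3, muscarinic acetylcholine receptors, changed by -2.03 ± 0.16 and -1.80 ± 0.25 on the log2 scale, and Gria4 by -1.84 ± 0.24. Egln3, a prolyl hydroxylase of the hypoxia response, was at 4.87, 7.64 and 8.60 CPM against 52.0, 28.1 and 48.0 CPM (-2.98 ± 0.26). Itih4, Slc26a7, Bmx, Megf10, Cntn6, Spock3, Gm28154 and Clca3a1 completed the list with log2 fold changes of -3.54 to -1.79. Of the 15, 10 passed without pool 1 (adjusted p from 0.00019 to 0.130 over those tested), Chrm3, Itih4, Slc26a7 and Spock3 did not pass, and Bmx was under the filter on low counts. DESeq2 called 5 of the 15 falls and gave the others no adjusted p. Clca3a1 is a close paralog of the rule gene Clca3a2, and reads may have been divided between the copies. In RefSeq's order of genes on the assembly GRCm38.p6, Gm28154 is the neighbour of the rule gene Pi15, and 4930417O22Rik of Sost, so transcripts running from one gene into the other cannot be told apart from separate expression. In the same order, pseudogenes left out, 3 genes lie between Wnt16 and the rule gene Ptprz1, and 4 between Chrm3 and the rule gene Ryr2.

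**Figure D3:**
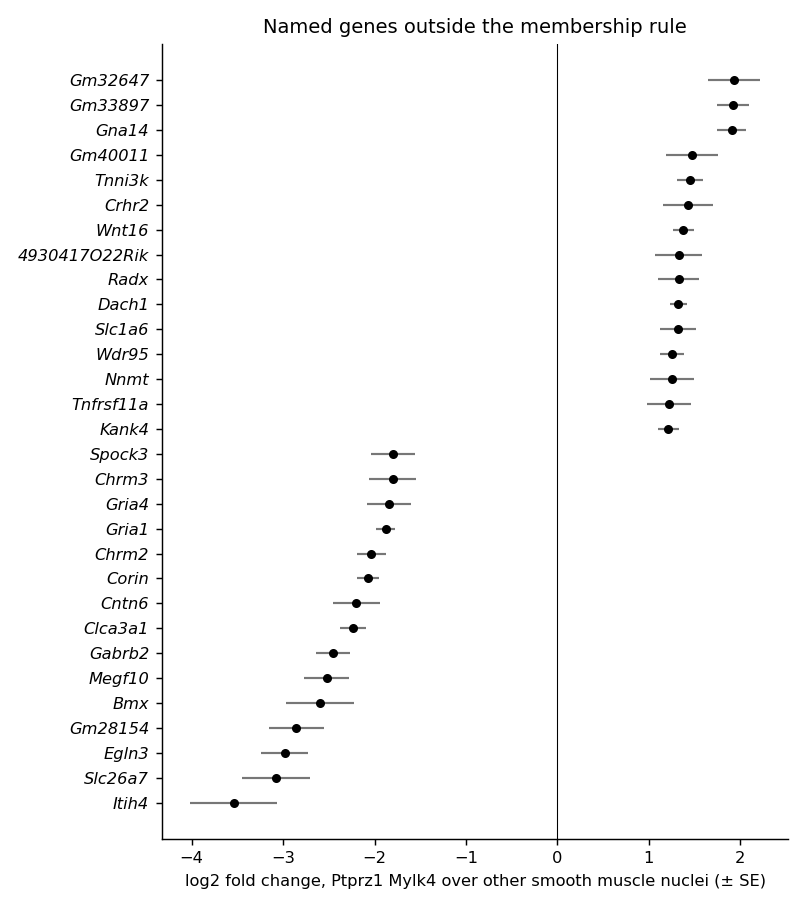
Log2 fold change (x axis, points, with SE as bars) of the 15 genes with the largest rise and the 15 with the largest fall in Ptprz1 Mylk4 nuclei over other smooth muscle nuclei, outside the genes the rule reads. Rises reached 1.93 and falls -3.54.

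Levels along the Ptprz1 Mylk4 share, among nuclei with at least 5 class-gene UMIs, are given as a description only, since the rule reads the same UMIs and these genes were chosen for their difference between the classes. Gna14 rose from 35.0 ± 12 CPM (SD, n = 3 pools) where the share was 25% or less, through 110 ± 28, to 212 ± 40 CPM where it was 75% or more. Wnt16 went from 48.3 ± 11 through 119 ± 36 to 216 ± 46 CPM. Gabrb2 went the other way, from 110 ± 6.4 through 29.9 ± 7.3 to 3.58 ± 1.9 CPM. Of the 15 named lower genes, 12 were ordered in this way, and Itih4, Chrm3 and Spock3 were lowest in the middle nuclei.

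The genes of lists chosen for this tissue are described next. Their counts stand beside 5.18% higher and 5.52% lower, 10.7% in all, over all genes tested, and whether a list differs from all genes or from another list was not tested.

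**Figure D4:**
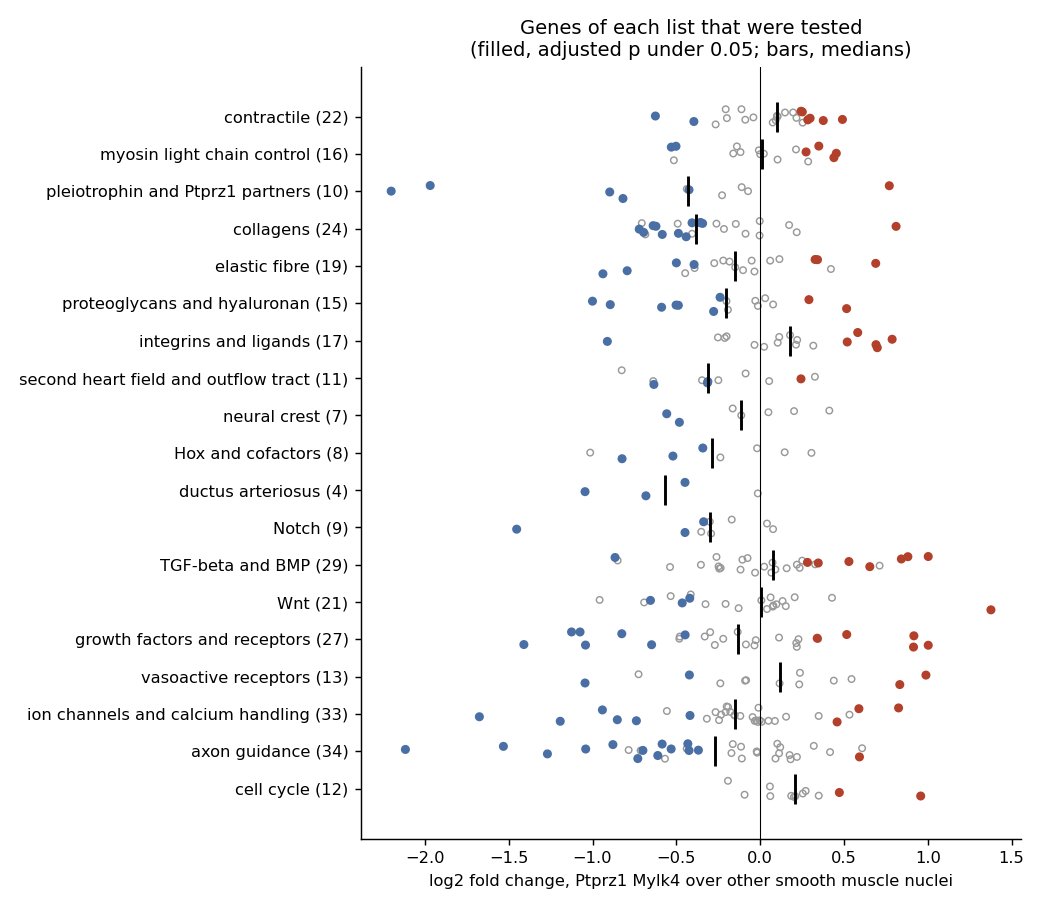
Log2 fold change (x axis) in Ptprz1 Mylk4 nuclei over other smooth muscle nuclei of every tested gene in each list (rows, number of genes in parentheses). Filled points passed an adjusted p of 0.05, open points did not, and black bars are medians, which lie between -0.56 for the ductus arteriosus list and 0.21 for the cell cycle list.

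Among contractile genes, 6 of 22 tested were higher and 2 lower, with a median log2 fold change of 0.10. The risers were Vcl (0.49 ± 0.07), Actn1 (0.38 ± 0.07), Lpp, Csrp1, Flna and Tpm1, all genes of the actin cytoskeleton or its adhesions. Csrp1 lost its call in 9 of 13 alternatives, and Flna and Tpm1 in 6 of 13 each, without pool 3 among them. Vcl, which encodes the adhesion protein vinculin, was at 939, 959 and 1062 CPM in members against 699.9, 707 and 739 CPM. The defining contractile genes did not pass: Acta2 was at 862, 1631 and 706 CPM in the other smooth muscle nuclei, and the difference from members was 0.10 ± 0.08 (adjusted p = 0.56, edgeR). Acta2 passed as higher without pool 2 (0.27, adjusted p = 0.0038), among nuclei without a haemoglobin UMI (0.37, adjusted p = 0.017) and among nuclei with fewer than 2 cell cycle UMIs (0.33, adjusted p = 0.0013), and differed by -0.02 without pool 1. Tagln differed by -0.11 ± 0.08 (adjusted p = 0.48) and Cnn1, calponin, by 0.08 ± 0.13 (adjusted p = 0.83). Actg2, enteric actin, was lower (-0.62 ± 0.15). In the pathway that sets myosin light chain phosphorylation, on which Mylk4 family kinases act, 4 of 16 genes were higher: the kinases Rock1 (0.45 ± 0.07) and Rock2 (0.44 ± 0.07), the myosin phosphatase subunit Ppp1r12b (0.35 ± 0.07) and Camk2d (0.27 ± 0.07). Of the 2 that were lower, 1 was Arhgap42. Without pool 1, none of these 14 passed (adjusted p from 0.0556 to 0.478), and all kept their direction.

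Of 17 tested integrins and ligands, 5 were higher, 1 was lower and 11 did not pass. Itga9, which binds tenascin C and other ligands with beta 1 integrin, was at 929.7, 884 and 962 CPM against 608, 564 and 579 CPM (0.69 ± 0.07, adjusted p = 3.1e-07, edgeR). Itga4, the alpha 4 subunit that binds fibronectin and VCAM1, was at 746, 787 and 735 CPM against 524, 497 and 518 CPM (0.58 ± 0.07, adjusted p = 6.1e-06). Both were higher in every member pool than in any pool of the others, and both passed without pool 1 (adjusted p = 0.017 and 0.035). Npnt, the ligand nephronectin, rose by 0.79 ± 0.16, Itga7 by 0.70 ± 0.13 and Itgb3 by 0.52 ± 0.13, and these did not pass without pool 1. Itgb8 changed by -0.91 ± 0.14. The ubiquitous partner Itgb1 did not pass (0.10 ± 0.08).

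Of 10 tested ligands and partners of the Ptprz1 phosphatase, 5 were lower, 1 was higher and 4 did not pass. Ptn, which encodes pleiotrophin, was at 147, 183 and 267 CPM in members and 293, 426 and 411 CPM in the others (-0.90 ± 0.09, adjusted p = 4.9e-07, edgeR). Mdk, midkine, was at 37.2, 63.0 and 28.7 CPM against 64.8, 139 and 41.5 CPM (-0.82 ± 0.15, adjusted p = 0.00053), and its ranges overlapped. Cntn6, a contactin, was at 6.40, 5.73 and 10.0 CPM against 30.7, 35.4 and 39.4 CPM (-2.20 ± 0.26). Alk and Nrp1, receptors for pleiotrophin, were also lower. Tnc, which encodes tenascin C, was the exception, at 305, 416 and 311 CPM against 233, 186 and 156 CPM (0.77 ± 0.11, adjusted p = 3.8e-05). Without pool 1, Tnc (adjusted p = 0.0079), Ptn (0.039) and Cntn6 (0.033) passed, and Mdk, Alk and Nrp1 did not (0.12, 0.56 and 0.19). Without the pool block, Ptn had an adjusted p of 0.062.

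Of 24 collagens, 11 were lower and 1 higher, with a median of -0.38. Col3a1 was at 649, 764 and 699 CPM in members and 1013, 1489 and 934 CPM in the others (-0.64 ± 0.08), and Col1a1 at 517, 619 and 335 CPM against 692, 1189 and 491 CPM (-0.58 ± 0.09). The ranges of Col3a1 did not overlap and those of Col1a1 did. The collagen VI genes Col6a1, Col6a2, Col6a3 and Col6a6 fell by 0.44 to 0.72 on the log2 scale. Col15a1, a collagen of basement membrane zones, rose, at 81.0, 120.3 and 96.0 CPM against 56.8, 63.5 and 38.7 CPM (0.81 ± 0.14, adjusted p = 0.00043, edgeR). Among nuclei without a haemoglobin UMI, 3 of the 11 lower collagens still passed, and without pool 1 it was Col1a1 only, while all 11 kept their direction in both. None of the 11 passed without the pool block (adjusted p from 0.0573 to 0.433, edgeR), again with the direction kept. The fibroblast markers given above were lower in the same nuclei, and their part in the collagen difference was not tested.

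Of 19 elastic fibre genes, 3 were higher and 4 lower. Eln, which encodes elastin, was at 16598, 18900.4 and 13829 CPM against 13257, 17605 and 10019 CPM (0.33 ± 0.07, adjusted p = 0.0018, edgeR), a rise in each pool with ranges that overlapped between pools, and an adjusted p of 0.27 without pool 1 and 0.58 without the pool block. Ltbp2, a latent TGF-beta binding protein of microfibrils, rose by 0.69 ± 0.10 and Ltbp1 by 0.34 ± 0.07. The microfibril genes Fbn2 and Mfap2 and the elastic fibre genes Fbln1 and Emilin1 fell by 0.39 to 0.94, while Fbn1 (-0.15 ± 0.07) and Fbln5 (0.12 ± 0.07) did not pass. Among proteoglycans, 2 of 15 were higher and 7 lower. Acan, the cartilage proteoglycan aggrecan, was at 319, 389.6 and 261 CPM against 226, 347 and 145 CPM (0.52 ± 0.10). Lum, Dcn and Aspn, small leucine-rich proteoglycans, fell by 0.49 to 0.89, and Vcan, versican, by 0.50. Of these 16 elastic fibre and proteoglycan calls, Lum alone passed without pool 1, and all 16 kept their direction.

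Growth factor and TGF-beta genes moved in both directions. Pdgfd, a platelet-derived growth factor, was at 1473, 1461 and 1257 CPM in members and 866, 609 and 784 CPM in the others (0.92 ± 0.09, adjusted p = 1.2e-07, edgeR). Its detection after thinning was 67.5% ± 1.43 of members, 42.8% ± 9.30 of the others and 6.13% ± 0.414 of cardiomyocyte-gated nuclei (SD, n = 3 pools). Fgf2 rose by 0.92 ± 0.11 and Fgf1 by 1.00 ± 0.16, both secreted fibroblast growth factors. Igf1, insulin-like growth factor, fell from 128, 168 and 212 CPM in the others to 50.3, 61.1 and 68.8 CPM in members (-1.41 ± 0.12, adjusted p = 1.2e-08), while its receptor gene Igf1r rose by 0.34 ± 0.07 and its binding protein gene Igfbp4 fell by 1.07. In all, 5 of 27 genes of growth factors and their receptors were higher and 7 lower. Pdgfd, Igf1 and Igfbp4 passed without pool 1, and Fgf2 did not (adjusted p = 0.064), nor did Fgf1 (0.14). Igfbp4 did not pass without the pool block (adjusted p = 0.105, edgeR).

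Of 29 TGF-beta and BMP genes, 7 were higher and 1 lower. Ccn2, connective tissue growth factor, was at 519, 609 and 337 CPM against 293, 372 and 180 CPM (0.84 ± 0.08, adjusted p = 1.1e-07), a rise within each pool in edgeR's test although the ranges overlapped, and without the pool block its adjusted p was 0.12. The ligands Tgfb2 (0.53 ± 0.07) and Bmp4 (0.88 ± 0.18), the receptors Bmpr1a and Bmpr1b, and Skil also rose, and the coreceptor Tgfbr3 fell by 0.87. Skil lost its call in 9 of 13 alternatives, with each pool left out among them. Ccn2 and Tgfbr3 were among the 3 calls that passed without pool 1, and all 8 kept their direction. Among Wnt genes, Wnt16 was the 1 riser of 21 tested, a share near that over all genes. The Wnt modulator genes Sfrp2 and Dkk3 and the receptor Fzd1 were lower, and none of the 3 passed without pool 1 (adjusted p from 0.0702 to 0.311). Fzd1 lost its call in 11 of 13 alternatives and Sfrp2 in 5.

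Of 13 tested receptors for vasoactive substances, Agtr1a and Npr1 were higher and Ednra and Calcrl lower. Agtr1a lost its call in 9 of 12 alternatives, with each pool left out among them, and Calcrl in 4 of 13. Ednra, the endothelin A receptor, was at 98.7, 70.7 and 86.0 CPM in members and 192, 154 and 217 CPM in the others (-1.04 ± 0.11, adjusted p = 3.1e-07, edgeR), and it passed without pool 1 (adjusted p = 0.012). Npr1, a natriuretic peptide receptor, rose by 0.99 ± 0.16 and did not pass without pool 1 (0.25). Ano1, a calcium-activated chloride channel, was at 341, 411 and 344 CPM against 206, 206 and 208 CPM (0.83 ± 0.09, adjusted p = 3.7e-07). Kcnab1, a potassium channel beta subunit, rose by 0.46 ± 0.06 and Abcc9, the regulatory subunit of the vascular ATP-sensitive potassium channel, by 0.59 ± 0.10. The calcium-activated potassium channel Kcnma1 fell by 0.42 and the cation channel Trpc6 by 1.67, with 6 of 33 ion channel genes lower and 3 higher. Without pool 1, Ano1 was the only 1 of these 9 to pass.

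Of 34 tested guidance genes known from the nervous system, 13 were lower, 1 was higher and 20 did not pass. Slit2, a repulsive guidance ligand, was at 104, 82.1 and 182 CPM in members and 309.8, 373 and 415 CPM in the others (-1.53 ± 0.11, adjusted p = 2.1e-09, edgeR). Its receptor gene Robo1 was at 212, 199 and 487 CPM against 454, 423 and 721 CPM (-0.88 ± 0.09), lower within each pool with overlapping ranges. The lower genes also included Plxna2 (-0.73 ± 0.09), Sema6d (-1.27 ± 0.19) and the ephrin Efna5 (-0.53 ± 0.07), and the higher gene was Plxna4 (0.59 ± 0.08). Slit2, Robo1, Plxna2 and Efna5 passed without pool 1. Without the pool block, Robo1 had an adjusted p of 0.30 and Efna5 of 0.065.

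Of 11 second heart field genes, Mef2c was higher by 0.24 ± 0.07, and the GATA factors Gata4 and Gata6 and the T-box gene Tbx20 were lower by 0.31 to 0.63. Prrx1 and Sox6 were the 2 of 7 neural crest genes that passed, both lower. Among 8 Hox genes and cofactors, Hoxb3, Meis1 and Meis2 were lower, and of 9 Notch genes, Jag1, Heyl and Nrarp. Heyl lost its call in 8 of 13 alternatives, with each pool left out among them, and Meis1, Gata6 and Sox6 were also lost without pool 3. Of the 4 tested genes known from the ductus arteriosus, Epas1, Jag1 and Ednra were lower. Epas1 lost its call in 6 of 12 alternatives, without pool 1 and without pool 3 among them. Only Ednra of these 3 passed without pool 1. Of the 12 calls on heart field, neural crest, Hox and Notch lists, Meis2 alone passed without pool 1, and all kept their direction. Meis2 did not pass without the pool block (adjusted p = 0.15, edgeR).

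After thinning to 1000 UMIs, 10.8%, 10.6% and 11.1% of Ptprz1 Mylk4 nuclei held at least 2 UMIs of 12 cell cycle genes, against 7.92%, 9.17% and 7.005% of the other smooth muscle nuclei. The means were 10.8% ± 0.257 and 8.03% ± 1.09 (SD, n = 3). Each pool's members were higher. The Wilson intervals, which cover counting error only, overlapped in every pool, and such overlap is not a test of a difference. No test was made of the 3 paired values. Without thinning the means were 25.5% and 19.7%. Of the 12 genes, 2 were higher and 10 did not pass. Anln, which encodes anillin of the cytokinetic ring, was at 203, 178 and 162 CPM against 103, 112 and 78.1 CPM (0.96 ± 0.10, adjusted p = 5.1e-07, edgeR), and Knl1 rose by 0.47 ± 0.14. Knl1 lost its call in 5 of 12 alternatives, and without pool 1 its difference was 0.22 (adjusted p = 0.70, edgeR). Top2a, a DNA topoisomerase of dividing cells, differed by 0.25 ± 0.11 (adjusted p = 0.19). Among nuclei with fewer than 2 cell cycle UMIs, 505 genes were higher and 506 lower.

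Set against each of the other 3 classes alone, members differed most often from the smallest of them. Against the Clca3a2 Pi15 nuclei, 433 of 8817 genes were higher (4.91%) and 377 lower (4.28%), 9.19% in all. The largest differences outside the rule were in genes already named, among them Gm33897 (2.02 ± 0.23) and Gna14 (1.90 ± 0.18) upward and Slc26a7 (-3.41 ± 0.40) and Egln3 (-3.17 ± 0.28) downward. Against the Rgs5 Sost nuclei, 315 genes were higher (3.57%) and 711 lower (8.06%), 11.6% in all, although that class held only 88, 37 and 20 nuclei. Median mitochondrial shares in that class were 1.15%, 2.28% and 0.891%, above the 0.374%, 0.526% and 0.346% of members, and their part in the differences from it was not tested. Of 22 contractile genes, 9 were lower in members, 1 was higher (Myocd) and 12 did not pass. Acta2 was at 2015, 4194 and 2159 CPM in Rgs5 Sost nuclei (members lower by 1.33 on the log2 scale, adjusted p = 4.2e-09, edgeR) and Tagln at 876, 1522 and 998 CPM (members lower by 1.33, adjusted p = 7.6e-09). Of 19 elastic fibre genes, 13 were lower in members, Eln among them (-0.48 ± 0.10), and of 23 collagens, 12 were lower. Reln, a secreted glycoprotein known from neuronal migration, was at 1.83, 0 and 1.43 CPM in members and 38.5, 40.7 and 65.4 CPM in Rgs5 Sost nuclei, and Inpp4b, a phosphoinositide phosphatase, at 11.6, 3.82 and 15.8 CPM against 101, 71.2 and 229 CPM. Eln was higher in members than in Clca3a2 Pi15 nuclei (0.46 ± 0.10) and lower than in Rgs5 Sost nuclei, and Acan did the same (0.87 ± 0.13 and -0.74 ± 0.15). Eln did not pass against the Clca3a2 Pi15 nuclei without pool 1 (adjusted p = 0.12), without pool 3 (0.052) or without the pool block (0.35), nor against the Rgs5 Sost nuclei without pool 1 (0.060) or without the block (0.15). Acan did not pass without the block in either (0.076 and 0.073).

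Against the unassigned smooth muscle nuclei, 139 genes were higher (1.58%) and 158 lower (1.79%), 3.37% in all. Lama1, a laminin chain, was at 45.1, 53.5 and 28.7 CPM in members and 8.64, 13.6 and 7.33 CPM in unassigned nuclei (2.24 ± 0.42, adjusted p = 0.20 without pool 1), and Fat3, an atypical cadherin, at 8.53, 7.64 and 10.0 CPM against 48.4, 170.2 and 106 CPM (-3.25 ± 0.40). Gna14, Wnt16, Dach1, Kank4 and Pdgfd were higher in members in all 3 of these comparisons, and Ptn, Ednra and Corin were lower in all 3. Gna14, Dach1 and Pdgfd kept every one of these calls under the 11 alternatives run. Kank4 lost its call in 6 of 11 against the Rgs5 Sost nuclei (adjusted p = 0.53 without pool 1 and 0.089 without pool 3) and in 4 of 11 against the unassigned nuclei (0.43 and 0.052). Wnt16 lost its call in 1 alternative against each of these classes, Ptn in 2 against each, and against the Rgs5 Sost nuclei Corin lost it in 2 and Ednra in 1, with the direction kept throughout. Dach1 was higher by 1.37 ± 0.12, 1.27 ± 0.17 and 1.22 ± 0.15 than in the Clca3a2 Pi15, Rgs5 Sost and unassigned nuclei. The 3 comparisons share the member sums. Without pool 1 the numbers of genes called were 262, 443 and 114 against the Clca3a2 Pi15, Rgs5 Sost and unassigned nuclei, of 810, 1026 and 297 with all pools, and without pool 3 it was 467 against the Clca3a2 Pi15 nuclei.

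**Figure D5:**
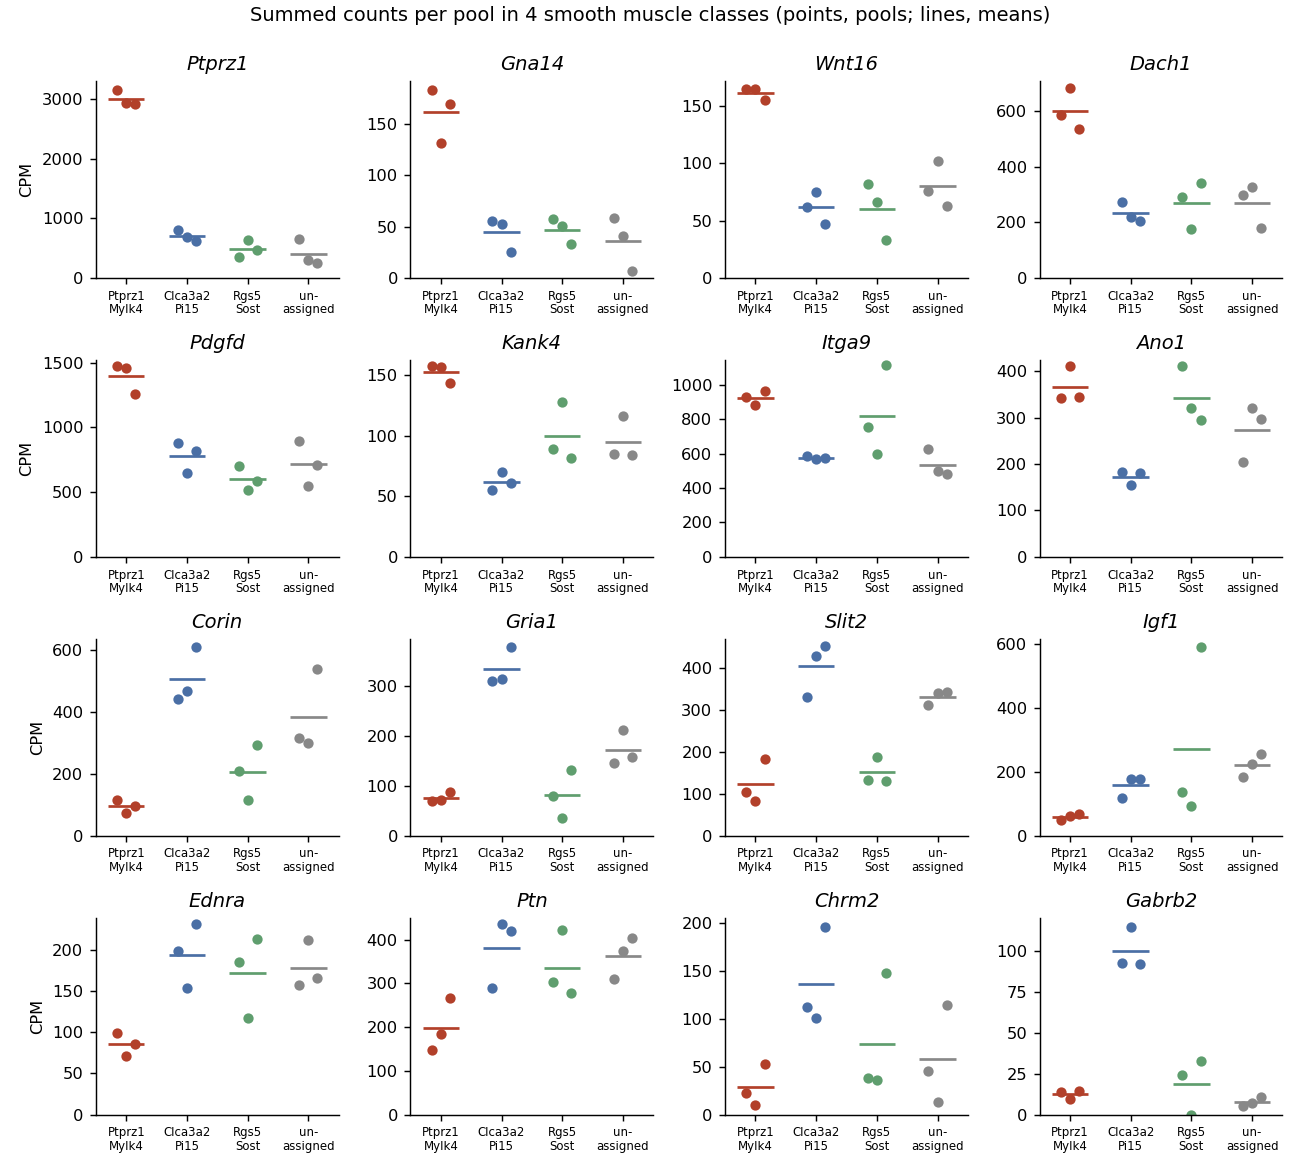
CPM (y axes, from 0) of 16 genes in the UMIs summed per pool for the Ptprz1 Mylk4, Clca3a2 Pi15, Rgs5 Sost and unassigned smooth muscle nuclei; points are pools 1 to 3 from left to right and lines are means. Ptprz1 was part of the membership rule; Gna14, Wnt16, Dach1 and Pdgfd were higher in every member pool than in any pool of the other classes.

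EGFP, the reporter in the Scx allele, had 18 UMIs in all members (4.57, 0 and 4.30 CPM by pool) and 18 in the other smooth muscle nuclei, and Scx had 0 UMIs in either, which allows up to 3 UMIs of the 4504025 in members.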

How the data were processed

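Nuclei came from frozen tissue of 3 pools, all in 1 group. Raw UMI counts per gene and nucleus were deposited by the authors, and the file headers name Cell Ranger 7.1.0. The submitters' processing notes name Cell Ranger 7.0.1 and 7.1.0 and the build GRCm39. The annotation is not given in the sources used here. Libraries held 49918251, 25341316 and 21254247 UMIs over 36167 features.

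UMIs were summed per pool and class and scaled to CPM. Classes were compared with edgeR 4.0.16 (R 4.3.3; TMM, filterByExpr, quasi-likelihood test, Benjamini-Hochberg adjustment over all genes, threshold 0.05). Members were compared with all other smooth muscle nuclei in a fit of 6 sums, and with each class in a fit of 12. Pool entered as a blocking term, since 1 library held every class of its pool. Whether pools came from separate litters is not given, and p-values measure the spread between pools, which may be partly technical. Genes read by the rule stayed in the fits but are described without a test. On simulated counts for the comparison with the other smooth muscle nuclei (10373 genes), 87.9% of 2-fold and 98.9% of 4-fold changes were recovered. Changes were planted only in genes above a minimum mean count, and the simulated pools shared 1 expression profile. These recoveries therefore do not carry over to genes with few UMIs or to differences between pools.

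The text names, outside the rule, the 15 largest called changes in each direction with the same direction in 3 of 3 pools and at least 20 CPM in the higher class (largest 5 for single classes, of which only some are given), and genes of the lists, of which a few are not reported here. The members and lists were chosen with earlier results of these data known. Cells with high Scrublet scores (scanpy 1.11.5) were kept; 24, 1 and 3 members were marked, and leaving marked nuclei out was an alternative, as were other filters, DESeq2 1.42.0, no block and leaving out each pool. Alternatives without haemoglobin UMIs or cycling nuclei were chosen after seeing the data. Thinning drew 1000 UMIs per nucleus. Python was 3.11.15.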

Additional observations from a re-analysis of the deposited data

How the results depend on the processing

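The share of Ptprz1 Mylk4 nuclei was 33.9% to 38.3% with each pool left out in turn. Genes higher than in other smooth muscle nuclei numbered 166 with no replicate block (548 with the pairing of classes within pools), 246 in DESeq2, 312 among nuclei without a haemoglobin UMI, and 92 to 615 with 1 pool left out. Genes lower numbered 89, 165, 275 and 75 to 576 in the same order. Against Clca3a2 Pi15 nuclei the calls were 287 with no replicate block, 436 in DESeq2 and 262 to 722 with 1 pool left out. Against Rgs5 Sost nuclei they were 530 with no replicate block, 511 with nuclei matched on UMI total, and 443 to 888 with 1 pool left out. Against unassigned nuclei they were 77 with no replicate block and 114 to 297 with 1 pool left out. The cause of these shifts was not tested. Fewer nuclei entered where a pool or nuclei were left out, and the part of this was not tested either. Cycling shares were 25.5% (members) and 19.7% (others) with no thinning, and 23.0% and 18.3% with a minimum of 1 cell cycle UMI; with 1 pool left out they were 10.7% to 10.9% and 7.46% to 8.54%. Among genes named in the text, log2 differences that changed sign were Acta2 (-0.016 to 0.27 with 1 pool left out) and Cnn1 at 2000 UMIs or more per nucleus (-0.032). Among nuclei with fewer than 2 cell cycle UMIs, Tagln (0.061), Hbb-bs (0.22), Hbb-bt (0.050), Hba-a1 (0.54) and Hba-a2 (0.34) also did. Of all calls outside the rule, 1078 of the 1086 fitted in those nuclei kept their direction, and 997 of 998 among nuclei without a haemoglobin UMI. The Rgs5 Sost class held 61134 UMIs in 20 nuclei in pool 3, which limits the precision of its values there.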
